A study of Danio rerio with 14 samples.

Results

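The genes described here are 7 that pattern the dorsal side of the early zebrafish embryo: the Nodal ligands ndr1 and ndr2, the Nodal inhibitors lft1 and lft2, and the organizer genes gsc, noto and chrd. They were chosen by gene symbol, and each is read by 1 probe set, so that they make up 7 of 15502 probe sets and 7 of 8793 named genes on the Affymetrix Zebrafish GeneChip. RNA was hybridized from untreated whole embryos at 4 hours post fertilization (hpf), 6 hpf and 9 hpf, from whole embryos of the same stages treated with retinoic acid (RA), and from ZF4, a zebrafish fibroblastic cell line, with 2 arrays for each of the 7 groups. The embryos came from natural matings of the Ekkwill strain, and RA, where given, was in their water from early cleavage until harvest. The labels name no mutant or transgene in any group. Separate clutches or cultures for the arrays of a group are not stated in the labels, so p-values measure only the spread between these samples, which may be technical.

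Nodal proteins are ligands of the transforming growth factor beta family that bind activin receptors together with the co-receptor Tdgf1, and the activated receptors phosphorylate Smad2 and Smad3, which enter the nucleus and switch on genes with partners such as Foxh1. Nodal signals at the margin of the blastula induce mesoderm and endoderm, and their highest levels on the dorsal side induce the organizer, known in fish as the shield. Targets of the pathway include the genes for Lefty proteins, secreted antagonists that limit the range of Nodal itself, and organizer cells secrete Chordin, which holds back bone morphogenetic proteins (BMPs) and so protects the dorsal side from ventral signals.

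All values are deposited expression values on a log scale. The log base is not stated in the sources used here and was read as log2 from the range of the values, so that a difference of 1 is taken as a doubling and every fold below rests on that reading. A background level of 5.30 was taken from control probe sets that match no zebrafish gene, and a value at or below it was read as not well above background. Array medians lay between 6.116 and 6.316 and the replicates of a group correlated at 0.929 to 0.952 over all probe sets. Most fibroblast markers followed the labels. Against untreated embryos of 4, 6 and 9 hpf, 10, 10 and 9 of 14 were called higher in ZF4 and 1, 1 and 2 lower. By level, 12 of 14 stood above background on both ZF4 arrays and 3 to 6 in the embryo groups. Of 5 axial mesoderm genes 5 did so in each 6 and 9 hpf group and 0 in ZF4. At 4 hpf 3 did so in untreated and 2 in RA-treated embryos. These 5 include gsc, noto and chrd, so they are not a check apart from the genes described here. Levels of different genes are not compared with each other, since each probe set binds its target differently.

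The 2 ligands ran differently in time. ndr1, also known as squint, read 6.139 and 7.021 in untreated embryos of 4 hpf, 5.444 and 5.552 at 6 hpf and 5.045 and 4.702 at 9 hpf, where both arrays lay below background. Its mean was highest at 4 hpf, and the stages did not overlap. Between 4 and 9 hpf it fell at least 2.43-fold (-1.71 ± 0.53 (SE) on the log2 scale, limma, adjusted p = 0.0231). With single arrays left out this change ranged from -2.15 to -1.27. Its call was lost without array 2 of 4 hpf or either array of 9 hpf. The step from 4 to 6 hpf (-1.08 ± 0.53, limma, adjusted p = 0.138) and that from 6 to 9 hpf (-0.62 ± 0.53, limma, adjusted p = 0.564) did not pass the threshold of 0.05 when taken singly. ndr2, also known as cyclops, read 4.297 and 5.684 at 4 hpf, 6.979 and 7.125 at 6 hpf and 5.778 and 6.012 at 9 hpf. It stood highest at 6 hpf with no overlap with either other stage, and it rose by 2.06 ± 0.52 (SE) from 4 to 6 hpf (limma, adjusted p = 0.00998), a size that is uncertain because array 1 of 4 hpf was below background. The later difference of -1.16 ± 0.52 between 6 and 9 hpf did not pass (limma, adjusted p = 0.215). RNA came from whole embryos, so that fewer expressing cells and less RNA per cell cannot be told apart for any of these genes.

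Both inhibitors had their lowest mean at 4 hpf in untreated embryos. lft1 read 5.907 and 8.145 at 4 hpf, 9.08 and 9.261 at 6 hpf and 8.794 and 8.926 at 9 hpf in untreated embryos. Both later stages lay above both 4 hpf arrays, and the rise from 4 to 6 hpf was 2.14 ± 0.73 (SE) (limma, adjusted p = 0.0396), while the difference between 9 and 4 hpf, 1.83 ± 0.73, missed the threshold (limma, adjusted p = 0.0642). lft2 read 6.451 and 7.764 at 4 hpf, 7.803 and 8.048 at 6 hpf and 8.394 and 8.746 at 9 hpf. It was the only one of the 4 ligand and inhibitor genes with its highest mean at 9 hpf, and it rose by 1.46 ± 0.45 (SE) between 4 and 9 hpf (limma, adjusted p = 0.021), with neither single step past the threshold (0.82 ± 0.45, adjusted p = 0.18, and 0.64 ± 0.45, adjusted p = 0.454, both limma).

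Among the organizer genes, chrd had the largest change between 4 and 6 hpf and noto the smallest. gsc, a homeodomain repressor of the prechordal mesoderm, read 6.496 and 8.831 at 4 hpf, 9.618 and 9.77 at 6 hpf and 9.289 and 9.779 at 9 hpf. It rose by 2.03 ± 0.65 (SE) by 6 hpf (limma, adjusted p = 0.0306), and its 6 and 9 hpf values overlapped. chrd, which encodes Chordin, read 5.864 and 8.372 at 4 hpf, 10.29 and 10.15 at 6 hpf and 10.11 and 10.68 at 9 hpf. The rise to 6 hpf was 3.10 ± 0.79 (SE), or 8.6-fold (limma, adjusted p = 0.00993), and the later stages overlapped. noto, the homeodomain gene that the notochord requires, already stood at 7.676 and 9.889 at 4 hpf, and read 9.93 and 9.976 at 6 hpf and 9.576 and 9.883 at 9 hpf. Its array 2 of 4 hpf was within the range of the later stages, and its difference of 1.17 ± 0.73 between 6 and 4 hpf did not pass (limma, adjusted p = 0.239).

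**Figure D1:**
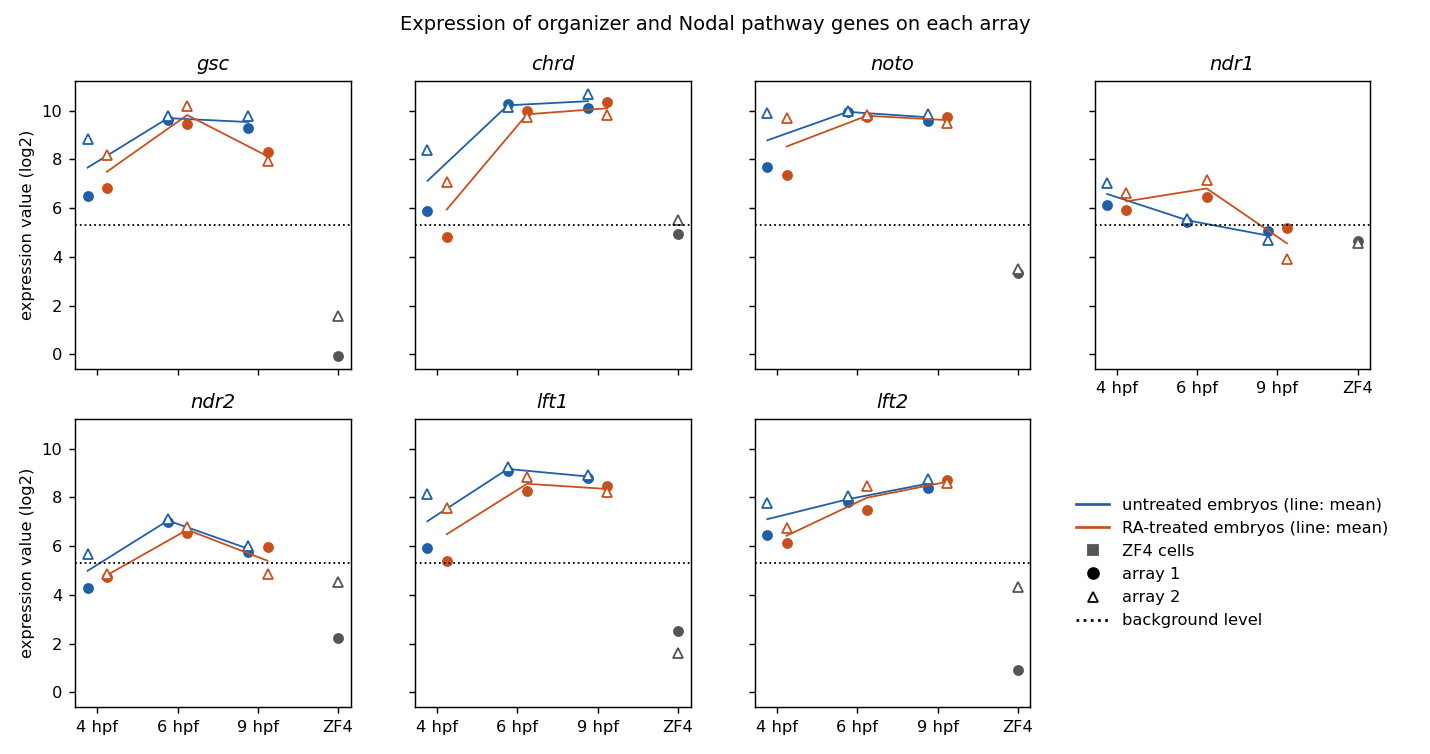
Deposited log2 expression value (y axis) of each of the 7 genes by stage and in ZF4 cells (x axis), with circles for array 1, triangles for array 2, lines through the group means and a dotted line at the background level of 5.30. Values of 4 hpf lie apart between the arrays in untreated embryos, and less evenly in RA-treated ones, where those of ndr2 lie close together. By 9 hpf ndr1 falls to background, and of the ZF4 values 1, that of chrd on array 2, lies above background.

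Over the 3 stages, limma called 4 of 7 genes between 4 and 6 hpf, all higher, beside 40.1% of all probe sets called and 19.1% called higher. Between 6 and 9 hpf it called 0 of 7 (0 at an unadjusted p under 0.05), beside 10.1% of probe sets. Between 4 and 9 hpf it called 4 of 7, with gsc (1.87 ± 0.65), chrd (3.28 ± 0.79) and lft2 higher and ndr1 lower, beside 46.0%. The groups of 4 and 6 hpf did not overlap for 7 of 7 genes, beside 70.3% of probe sets, and those of 6 and 9 hpf did not overlap for 5 of 7, beside 53.9%. Highest means therefore fell at 4 hpf for ndr1, at 6 hpf for gsc, noto, ndr2 and lft1, and at 9 hpf for chrd and lft2, but 6 and 9 hpf did not differ past the threshold for any of the 7. In the 12 embryo arrays, and as a description only, the 6 genes other than ndr1 followed each other with Pearson's r between 0.54 (ndr2 with lft2) and 0.95 (chrd with lft1), and ndr1 correlated with them at -0.46 to 0.10. These arrays share stages, which enter every one of these figures.

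The 4 hpf replicates stood apart for these genes. In untreated embryos array 2 exceeded array 1 for 7 of 7 genes, by 0.88 (ndr1) to 2.51 (chrd) with a median of 2.21, while over all probe sets the median difference was -0.10. Of the 9078 probe sets above background on these arrays 1.48% differed upward by at least that median. RA-treated embryos of 4 hpf had array 2 higher for 7 of 7 as well, by 0.11 (ndr2) to 2.33 (noto) with a median of 1.34, a size that 2.79% of 8899 probe sets reached. A list of 15 genes activated by Nodal signals, which includes gsc and noto, moved with them. Of these, 12 were higher on array 2 in untreated and 15 in RA-treated embryos, beside 43.6% and 47.7% of all probe sets. Median differences were 1.52 and 2.21, but only 7 and 5 of the 15 stood above background on both arrays. In contrast, maternal transcripts were lower on array 2, with median differences of -0.56 and -0.35 over 10 genes, of which 1 and 0 were higher. Markers of the enveloping layer, the outer epithelium of the blastula, had medians of 1.18 and 0.53. Of these 10 genes only 3 and 2 stood above background on both arrays. At 6 hpf the 7 genes differed between untreated arrays by no more than 0.24, and in RA-treated embryos array 2 was higher for 6 of 7, with a median of 0.60 that 7.65% of probe sets reached and a highest difference of 1.00. At 9 hpf in RA-treated embryos array 2 was lower for 7 of 7 genes, by -0.13 to -1.28 with a median of -0.38. Over all probe sets array 2 was higher there for 41.6%, with a median difference of -0.11. Of the 9378 probe sets above background 81.3% lay at or above -0.38. Enveloping layer markers at 9 hpf were higher on array 2 for 0 of 10 genes in untreated and 10 of 10 in RA-treated embryos. The mean of 9 yolk syncytial layer genes ranged between the arrays from 6.018 to 7.852 and from 5.614 to 8.055. Only 4 and 3 of these 9 stood above background on both arrays, and 4 and 8 of 9 were higher on array 2. The part of embryo age, or of any other difference between the arrays, in these splits was not tested.

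**Figure D2:**
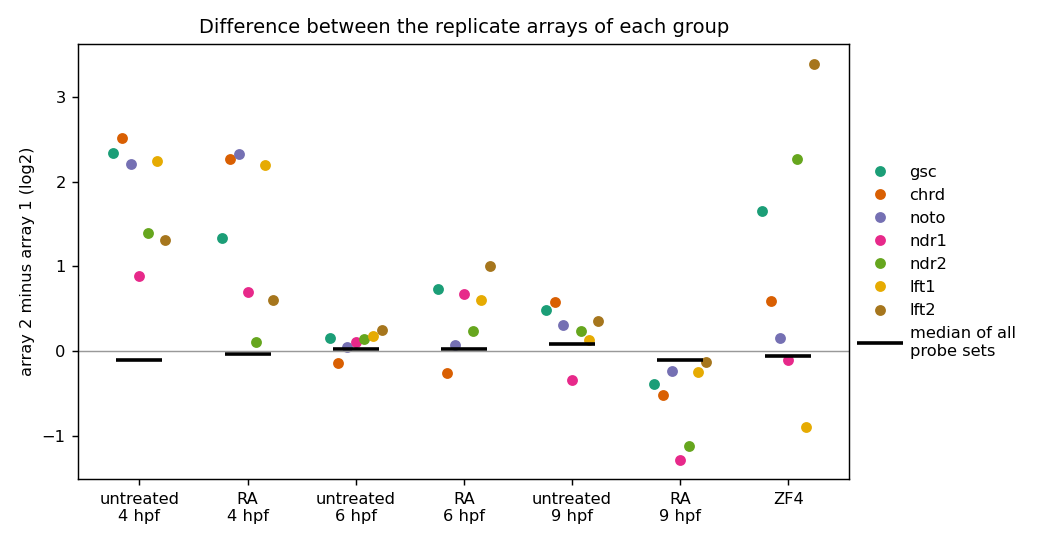
Array 2 minus array 1 on the log2 scale (y axis) for each group (x axis), with a point for each of the 7 genes and a bar at the median of all probe sets. All 7 points lie above 0 in both 4 hpf groups, where the largest differences are 2.51 and 2.33, and below 0 in RA-treated embryos of 9 hpf.

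Calls between 4 and 6 hpf depended on which 4 hpf array was used. Without array 1 of the untreated 4 hpf embryos, 0 of 7 genes were called (28.1% of all probe sets were), the rise of chrd was 1.85 and that of gsc 0.86. Without array 2, 6 of 7 were called (36.5% of all probe sets were), and noto (2.28, limma, adjusted p = 0.0293) and lft2 (1.47, limma, adjusted p = 0.025) joined the 4 named above. Leaving out 6 hpf array 1 or array 2 left 1 call each, beside 28.8% and 30.9% of probe sets. Between 4 and 9 hpf the 4 calls became 1 without 4 hpf array 1, 6 without 4 hpf array 2, 2 without 9 hpf array 1 and 1 without 9 hpf array 2, beside 37.2%, 42.0%, 38.0% and 38.3% of probe sets. The call of ndr1 between 4 and 9 hpf was lost without 4 hpf array 2, with a change of -1.27, and without either 9 hpf array. The direction from 4 to 6 hpf was the same for 7 of 7 genes whichever array of 4 or 6 hpf was left out.

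**Figure D3:**
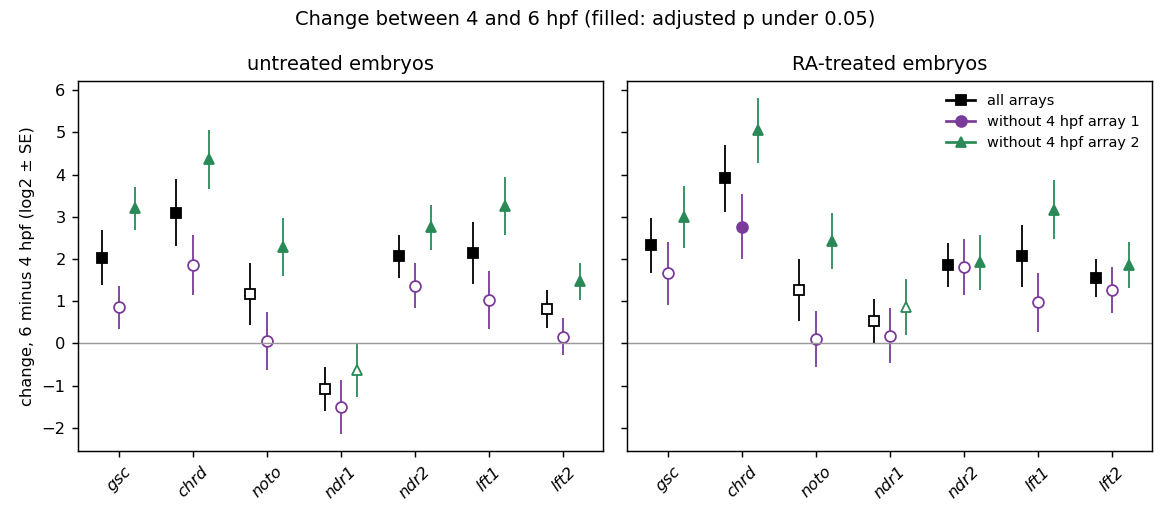
Change from 4 to 6 hpf on the log2 scale with its standard error (y axis) for each gene (x axis) in untreated and RA-treated embryos, fitted to all arrays (squares) and without array 1 (circles) or array 2 (triangles) of 4 hpf. Filled symbols passed an adjusted p of 0.05; in untreated embryos 4 of 7 pass with all arrays, 0 without array 1 and 6 without array 2.

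In RA-treated embryos gsc read 6.82 and 8.164 at 4 hpf, 9.453 and 10.19 at 6 hpf and 8.322 and 7.939 at 9 hpf. chrd read 4.802 and 7.077, then 9.981 and 9.721, then 10.36 and 9.838, and noto 7.363 and 9.695, then 9.757 and 9.825, then 9.732 and 9.492. Array 2 of 4 hpf came close to the 6 hpf arrays for noto. Its difference of 1.26 ± 0.73 (SE) between 6 and 4 hpf did not pass (limma, adjusted p = 0.203). lft1 read 5.392 and 7.588 at 4 hpf, 8.261 and 8.861 at 6 hpf and 8.471 and 8.227 at 9 hpf, and lft2 6.127 and 6.731, then 7.486 and 8.491, then 8.708 and 8.579. ndr2 read 4.754 and 4.865, both below background, then 6.552 and 6.792, then 5.963 and 4.844. ndr1 was the gene whose order of stages changed: it read 5.931 and 6.625 at 4 hpf, 6.468 and 7.143 at 6 hpf and 5.191 and 3.912 at 9 hpf, so that its highest mean was at 6 hpf, although the 4 and 6 hpf values overlapped.

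Between 4 and 6 hpf limma called 5 of 7 genes higher in RA-treated embryos, beside 40.5% of probe sets called and 21.2% called higher. These were gsc (2.33 ± 0.65, adjusted p = 0.0164), chrd (3.91 ± 0.79, adjusted p = 0.00284, 1 of 2 arrays of 4 hpf above background), ndr2 (at least 2.58-fold, adjusted p = 0.0164), lft1 (2.07 ± 0.73, adjusted p = 0.0451) and lft2 (1.56 ± 0.45, adjusted p = 0.0181). Without array 1 of RA-treated 4 hpf embryos 1 call was left, that of chrd, beside 28.4% of probe sets, and 3 or 1 were left without array 1 or array 2 of 6 hpf, beside 28.1% and 31.5%. Without array 2 of RA-treated 4 hpf embryos calls were added rather than lost, and the change of noto was 2.43. Between 6 and 9 hpf 1 of 7 was called, beside 16.0%. This was ndr1, which fell at least 2.84-fold (-2.25 ± 0.53, limma, adjusted p = 0.0171). The call was lost without array 2 of either stage. gsc (-1.69 ± 0.65, limma, adjusted p = 0.114) and ndr2 (-1.27 ± 0.52, limma, adjusted p = 0.137) had lower values at 9 hpf that did not pass, and 3 of 7 genes had an unadjusted p under 0.05.

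No effect of RA on the 7 genes passed the test at any stage. At 4 hpf limma called 0 of 7 (0 at an unadjusted p under 0.05), beside 0.0903% of probe sets. All 7 differences were negative, from -0.17 (gsc) to -1.18 (chrd), but the arrays overlapped for 7 of 7, where 27.6% of probe sets did not overlap, and without array 2 of untreated embryos the differences of 6 of 7 genes turned positive. The replicate differences of the untreated and RA-treated arrays of 4 hpf correlated at 0.584 over 9279 probe sets. Taken within array numbers, the RA difference was -1.06 and -1.29 for chrd and -0.32 and -1.03 for lft2. For lft1 it was -0.51 and -0.56, for noto -0.31 and -0.19 and for ndr1 -0.21 and -0.4. gsc (0.32 and -0.67) and ndr2 (0.46 and -0.82) were higher with RA on array 1. The median RA difference over all probe sets was -0.08, and the share lower on both numbers was not counted. With the array number as a block within each stage, the difference of chrd did not pass (-1.18 ± 0.27, limma, adjusted p = 0.236), and it passed where the numbers of the 9 hpf arrays were also crossed (-1.18 ± 0.15, limma, adjusted p = 0.00667), beside 1.34% of probe sets, an alternative chosen after seeing the data. At 6 hpf limma called 0 of 7, beside 0.284% of probe sets, with 1 at an unadjusted p under 0.05 and 5 of 7 without overlap beside 41.3%. The one was ndr1, at 6.468 and 7.143 with RA against 5.444 and 5.552 without, a difference of 1.31 ± 0.53 (95% confidence interval 0.12 to 2.49, 2.48-fold, limma, adjusted p = 0.598), and over 13 alternatives its adjusted p ranged from 0.263 to 1.0. Maternal and oocyte markers also had higher values with RA at 6 hpf, with a median difference of 0.71 over 10 genes, of which 0 passed, beside -0.02 over all probe sets, and their mean lay at 7.664 to 7.922 on untreated and 8.113 to 8.783 on RA-treated arrays. Their part in the ndr1 difference was not tested. At 9 hpf limma called 0 of 7 (0 at an unadjusted p under 0.05), beside 0.0% of all probe sets, and 2 of 7 did not overlap, beside 25.5%. gsc differed most, at 8.322 and 7.939 with RA against 9.289 and 9.779 without, a difference of -1.40 ± 0.65 (95% confidence interval -2.86 to 0.05, 2.64-fold lower, limma, adjusted p = 1.0), with an adjusted p from 0.117 to 1.0 over 13 alternatives.

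Intervals around the other differences were wide. For chrd the 95% confidence interval of the RA difference ran from -2.93 to 0.57 at 4 hpf, from -2.12 to 1.38 at 6 hpf and from -2.04 to 1.45 at 9 hpf. For lft2, the gene with the smallest standard error, it ran from -1.67 to 0.32 at 4 hpf, from -0.93 to 1.06 at 6 hpf and from -0.92 to 1.07 at 9 hpf. A difference of 1.06, about a doubling, thus lay inside the interval at 6 and 9 hpf even for lft2, and RA-treated and untreated embryos are not shown to be alike. Whether the RA difference itself changed between stages was tested as a contrast: limma called 0 of 7 between 4 and 6 hpf and 0 of 7 between 6 and 9 hpf, beside 0.00645% of probe sets in each. ndr1 had 1.61 ± 0.75 in the first (limma, adjusted p = 0.946) and -1.63 ± 0.75 in the second (limma, adjusted p = 1.0), and gsc had -1.53 ± 0.92 in the second (limma, adjusted p = 1.0). The 2 contrasts share the 6 hpf arrays, so the opposite signs for ndr1 are not independent.

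**Figure D4:**
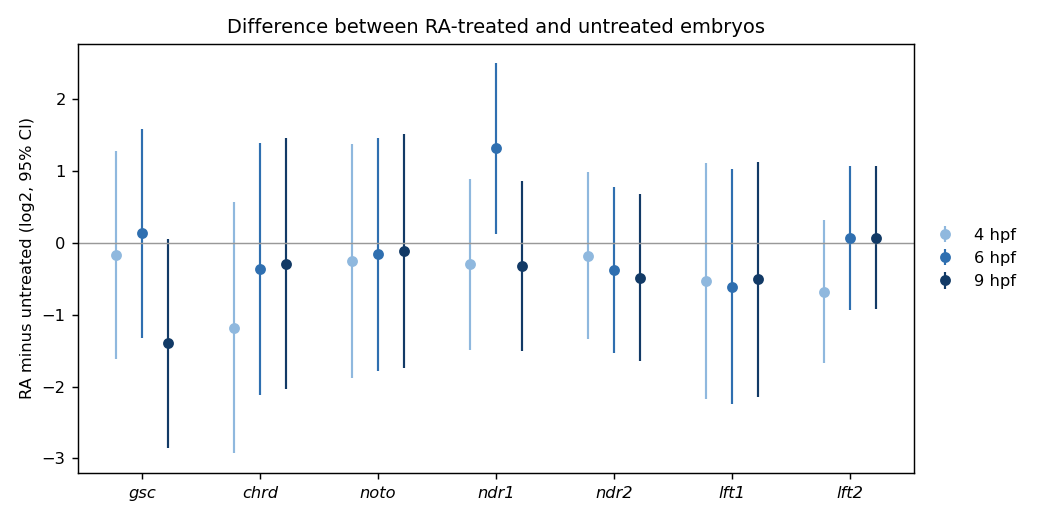
RA-treated minus untreated embryos on the log2 scale with 95% confidence intervals (y axis) for the 7 genes (x axis) at 4, 6 and 9 hpf. Of the 21 intervals 1 leaves out 0, that of ndr1 at 6 hpf from 0.12 to 2.49, and none of the differences passed after adjustment over all probe sets.

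In ZF4 cells 6 of 7 genes lay below background on both arrays. gsc read -0.06 and 1.58, noto 3.337 and 3.495, lft1 2.519 and 1.627, lft2 0.92 and 4.313, ndr1 4.658 and 4.559 and ndr2 2.249 and 4.521. chrd read 4.934 and 5.528, so that its array 2 alone lay above background. Against untreated embryos of 6 hpf limma called 6 of 7 lower, beside 48.5% of probe sets called and 24.9% called lower: noto was at least 25.1-fold lower, gsc at least 21.0-fold, lft1 at least 14.6-fold, lft2 at least 6.16-fold, ndr2 at least 3.36-fold and chrd 31.8-fold. ndr1, itself close to background in untreated embryos of 6 hpf, differed by -0.89 ± 0.52 (limma, adjusted p = 0.186). Against 9 hpf 6 of 7 were again lower, beside 45.4% called and 23.8% called lower: noto at least 21.5-fold, gsc at least 18.8-fold, lft1 at least 11.8-fold, lft2 at least 9.63-fold, ndr2 at least 1.51-fold and chrd 35.8-fold. The lower bounds cannot be ranked against the fold of chrd, whose size is uncertain in both comparisons because array 1 of ZF4 was below background. Against 4 hpf 5 of 7 were lower, beside 51.2% called and 27.5% called lower, and chrd (-1.89 ± 0.76, limma, adjusted p = 0.0564) and ndr2 (-1.61 ± 0.70, limma, adjusted p = 0.0778) were not. The 3 comparisons use the same ZF4 arrays.

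Other genes of the Nodal pathway were counted by list. Of 8 measured genes among 10 for ligands, their partners and extracellular regulators, 4 are not members. Between 4 and 6 hpf in untreated embryos 1 of these 4, gdf3, fell, beside 40.1% of all probe sets called. Gdf3 (Vg1) is the maternal partner with which Nodal forms heterodimers, and it fell by 2.05 ± 0.28 (SE) to 6 hpf (limma, adjusted p = 0.000287) and by 3.11 ± 0.28 to 9 hpf (limma, adjusted p = 0.00023). The co-receptor gene tdgf1, known as one-eyed pinhead, differed by 0.04 in the first step and passed in neither. In RA-treated embryos between 6 and 9 hpf gdf3 fell by 3.57 ± 0.28, tdgf1 by 1.63 ± 0.40 and furina, for a protease that cleaves ligand precursors, by 1.11 ± 0.26 (limma, adjusted p = 6.45e-05, 0.021 and 0.016). With ndr1, these were the 4 calls among the 8 genes of the list, beside 16.0% of all probe sets called. Whichever single array of these groups was left out, the 4 calls were not all kept.

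Receptors and mediators inside the cell went both ways at first. Of 11 measured of 18, between 4 and 6 hpf 3 rose and 2 fell in untreated embryos, a share near the 40.1% of all probe sets called, with a median change of -0.03 beside 0.05 over all probe sets. eomesa, a maternal T-box factor, fell by 3.75 ± 0.37 (SE) and smad2 fell by 2.1 ± 0.2, while smad7, an inhibitory Smad, rose by 2.08 ± 0.49, and tgif1, a corepressor of Smad2, by 1.55 ± 0.26 (limma, adjusted p = 5.62e-05, 4.63e-05, 0.0065 and 0.00114). Between 6 and 9 hpf 10.1% of all probe sets were called in untreated and 16.0% in RA-treated embryos. In this step 0 of the 11 rose and 4 fell in untreated embryos: foxh1, the DNA-binding partner of Smad2, by 1.30 ± 0.23, the type I receptor gene acvr1ba by 1.48 ± 0.34, the homeobox gene mixl1 by 3.24 ± 0.77 (to above background on a single array), and eomesa at least 2.14-fold (limma, adjusted p = 0.00695, 0.0223, 0.0254 and 0.0449). With any 1 of these 4 arrays left out, 0 or 1 of the 11 were lower. In RA-treated embryos the same 4 genes were lower at 9 than at 6 hpf, and 2 to 4 of 11 with 1 array left out.

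**Figure D5:**
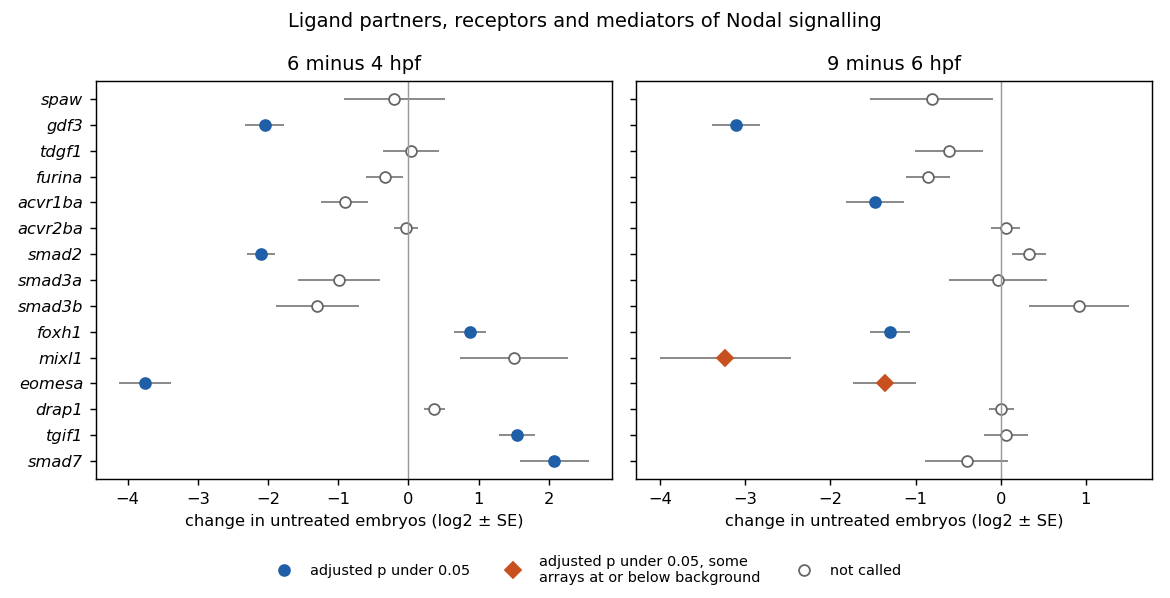
Change in untreated embryos on the log2 scale with its standard error (x axis) for genes of ligand partners, receptors and mediators of Nodal signalling other than the 7 genes above (y axis), from 4 to 6 hpf and from 6 to 9 hpf. gdf3 fell in both steps, eomesa and smad2 fell and smad7, tgif1 and foxh1 rose in the first, and acvr1ba, foxh1, mixl1 and eomesa fell in the second.

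Most genes listed downstream of Nodal rose between 4 and 6 hpf. Between these stages 40.1% of all probe sets were called in untreated embryos and 40.5% in RA-treated ones, with 19.1% and 21.2% called higher. Of 15 measured genes activated by Nodal signals in mesendoderm, 2 of them members, 11 rose and 0 fell in untreated embryos. Their median change was 3.60 beside 0.05 over all probe sets. sox32, which specifies endoderm, rose by 5.23 ± 0.42 (1 of 2 arrays of 4 hpf above background) and tbxta, the T-box gene of mesoderm and notochord, by 4.67 ± 0.62 (limma, adjusted p = 2.56e-05 and 0.000243). Of 19 organizer and axial mesoderm genes, 3 of them members, 16 rose and 0 fell, but fsta and shhb lay below background on every untreated array of 4 and 6 hpf. foxa2 rose by 5.36 ± 1.07 (1 of 2 arrays of 4 hpf above background), the Wnt antagonist gene frzb at least 3.94-fold and hhex at least 4.14-fold (limma, adjusted p = 0.00282, 7.64e-05 and 0.00234). Without array 1 of untreated 4 hpf embryos these counts were 8 of 15 and 10 of 19. In RA-treated embryos 13 of 15 and 15 of 19 rose, and 9 and 11 without array 1 of 4 hpf. Some genes appear in more than 1 list.

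These lists were also compared between 6 and 9 hpf. Over all probe sets, 10.1% were called in untreated and 16.0% in RA-treated embryos. Of the 15 Nodal-activated genes 0 rose and 2 fell between 6 and 9 hpf in untreated embryos, mixl1 and the LIM homeobox gene lhx1a (-3.52 ± 0.29, limma, adjusted p = 0.000184, 1 of 2 arrays of 9 hpf above background). Of the 19 organizer genes 2 rose, otx2b of the anterior neural plate and mesendoderm by 2.91 ± 0.52 (limma, adjusted p = 0.00689) and shhb, a hedgehog gene of the midline, at least 4.92-fold (limma, adjusted p = 0.00673), and 2 fell, lhx1a and dharma, the latter at or below background at both stages. The same comparison in RA-treated embryos had 4 organizer genes higher, otx2b by 3.58 ± 0.52, frzb by 1.85 ± 0.53, shhb at least 4.44-fold and fsta, for the activin antagonist Follistatin, at least 2.01-fold (limma, adjusted p = 0.00155, 0.0385, 0.0299 and 0.0348), and 2 lower, lhx1a and dharma. With 1 array left out, 1 or 2 of the 19 were higher in either treatment.

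Chordin opposes the BMP pathway, whose list was counted over the same interval. Of its 25 measured genes 12 rose, 0 fell and 13 did not pass between 4 and 6 hpf in untreated embryos, beside 40.1% of probe sets called and 19.1% called higher, and 8 to 14 rose with 1 array left out. The ventral homeobox gene eve1 rose at least 43.0-fold and bmper, for a BMP-binding protein, at least 7.47-fold. szl, a secreted regulator of the proteases that cut Chordin, rose by 6.11 ± 1.28 and the ventral repressor gene ved by 5.67 ± 1.81, each with 1 of 2 arrays of 4 hpf above background (limma, adjusted p = 1.63e-05, 2.68e-05, 0.00365 and 0.0293, in the order named). From 6 to 9 hpf 3 of the 25 rose and 1 fell, beside 10.1% of all probe sets called. Of those that rose, tp63, a marker of epidermal ectoderm, did so by 4.44 ± 0.49 (at 6 hpf only array 2 was above background) and msx1b by 2.28 ± 0.40 (limma, adjusted p = 0.000662 and 0.00673). The third was msx2b, which exceeded background on 1 of 2 arrays at 9 hpf, and the gene that fell was the BMP receptor gene acvr1l, by 0.62 ± 0.17 (limma, adjusted p = 0.0417).

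Few listed genes differed with RA, and few probe sets did in all. Of all probe sets 0.0903% were called at 4 hpf, 0.284% at 6 hpf and 0.0% at 9 hpf. Over the 6 lists and 3 stages, 1 gene passed the test of RA-treated against untreated embryos, sp5l, a target of Wnt signals in the list of maternal dorsal determinants. It read 8.059 and 9.523 in RA-treated embryos of 4 hpf and 4.807 and 5.201 in untreated ones, both below background, and was at least 11.2-fold higher with RA (limma, adjusted p = 0.013), a call that was lost without array 2 of untreated embryos, on the log2(value + 32) scale and with only the groups compared, where 0 of all probe sets passed. At 6 hpf its arrays read 12.01 and 11.86 with RA and 11.56 and 11.49 without (limma, adjusted p = 0.913). The test of the difference between the RA effects at 4 and 6 hpf gave -3.38 ± 0.51 for sp5l (limma, adjusted p = 0.0774).

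Genes of the Nodal machinery were also compared with ZF4. Against untreated embryos of 6 hpf, tdgf1 was at least 42.2-fold lower, foxh1 at least 38.8-fold and gdf3 at least 22.9-fold (limma, adjusted p = 8.46e-08, 9.92e-10 and 7.21e-09), while the type II receptor gene acvr2ba, above background in both, fell by 2.93 ± 0.16 (limma, adjusted p = 9.97e-08). Of the 11 receptor and mediator genes 7 were lower and 0 higher against 4 hpf, beside 51.2% of all probe sets called. Against 9 hpf 5 were lower and 3 higher, beside 45.4%. Against 6 hpf 48.5% of all probe sets were called, 24.9% lower, and 3661 of 15502 were called higher. There 6 of the 11 were lower and 3 higher, the latter smad2 by 1.51 ± 0.18, smad3a at least 2.27-fold and smad3b at least 1.58-fold (limma, adjusted p = 3.63e-05, 0.00735 and 0.0289). Of the Nodal-activated genes 0 were higher and 14 of 15 lower against 6 hpf. Whichever single array of these groups was left out, neither the 3 higher nor the 14 lower calls were all kept.

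Each of the 7 genes was also set against 8120 probe sets with a single named gene for likeness over the 14 arrays, as a description. Values at or below background were first set to the background level, unlike in the correlations among the 7 genes in embryos. For ndr1 this gave both 9 hpf groups and ZF4 the same value, which enters its figures. The closest to gsc was the apelin receptor gene aplnra (Pearson's r 0.964), to chrd the ventral gene ved (0.995), to noto the neural plate gene zic2b (0.988), to ndr1 dmrt1 (0.966), to ndr2 the early neural gene sox3 (0.958), to lft1 lye (0.983), and to lft2 rbm39b (0.973). Ranks 2 and 3 were ppp1r8b and rbm39a for gsc, hnrnpm and krt97 for chrd, and khdrbs1a and znf1065 for noto. They were plcg1 and snai2 for ndr1, upf1 and pnn for ndr2, and the Wnt receptor gene fzd7b (0.972) and ppp1cab for lft2. For lft1 they were tbx16 (0.979) and foxa3 (0.973), both in the mesendoderm list. The arrays share stage and source, which enter these values. Over the 7 group means instead, ved for chrd, dmrt1 for ndr1 and fzd7b for lft2 stayed among the 3 closest, and the other 18 of 21 did not.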

How the data were processed

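The 14 arrays were Affymetrix Zebrafish GeneChips. The deposited log2 values per probe set were made by the authors, who corrected background by mas5 and normalized by invariantset with expresso in affy 2.15.2. The summary method and log base are not given in the sources used here, and no column was pooled. Array signal over background, not depth, and 2 arrays per group set the precision. The methods describe fewer untreated stages than the labels, and the labels were followed.

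Of 15617 probe sets, 115 controls were left out and 15502 tested. Gene names came from the platform annotation and reference gene tables: 10795 probe sets carry 1 gene, 135 several and 4572 none. Background is the 95th percentile of 17 tag controls over all arrays (238 values); a group wholly at or below it was raised to it, array by array, and the fold given as a lower bound that makes no allowance for the spread of the brighter group. Probe sequences and genome coordinates were not used here.

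Group means were fitted with limma 3.58.1 in R 4.3.3, to 12 embryo arrays or to 14 for ZF4, with empirical Bayes moderation, an intensity trend, two-sided tests and Benjamini-Hochberg adjustment over all tested probe sets. The fit was tested on simulated data. Alternatives were quantile normalization, a common median, log2(value + 32), a filter on low values, no trend, only the groups compared, the replicate number as a block, and each array left out.

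Members and lists were chosen with earlier results of these data known. Named from each of the 6 lists are up to 4 genes with the largest changes among those called without overlap, each by its probe set of highest mean, and for each member the 3 most alike named genes above background, members and code names left out. Named after their values were seen were tdgf1 and foxh1 in untreated embryos up to 6 hpf, frzb and shhb in RA-treated embryos, smad2, smad3a and smad3b in ZF4, and the sp5l values outside the comparison at 4 hpf.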

Additional observations from a re-analysis of the deposited data

How the results depend on the processing

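With 1 array left out, the number of the 7 genes called ranged from 0 to 6 between 4 and 6 hpf and from 1 to 6 between 4 and 9 hpf in untreated embryos, from 1 to 6 (4 to 6 hpf) and from 0 to 1 (6 to 9 hpf) in RA-treated ones, and from 4 to 7, 6 to 6 and 5 to 6 for ZF4 against 4, 6 and 9 hpf. It stayed at 0 between 6 and 9 hpf in untreated embryos and in the 5 tests of RA. Where an arm then held 1 array, it was assumed to vary like the other groups. Without an intensity trend 2 were called between 4 and 6 hpf, and with only the groups compared 2 were called in each of 3 tests: between 4 and 6 and between 4 and 9 hpf in untreated embryos, and between 6 and 9 hpf with RA. The cause of these shifts was not tested. No other planned setting moved a count by over 1.5 times. Each gene has 1 probe set, so the choice of probe set could not be varied.

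Of the differences of single genes, 26 of 957 values under alternatives turned their sign, all uncalled and all with 1 array left out. Between 6 and 9 hpf the range was -0.41 to 0.08 for gsc and -0.12 to 0.46 for chrd in untreated embryos, and -0.01 to 0.51 for chrd and -0.51 to 0.09 for lft1 with RA. Between 4 and 9 hpf noto ranged from -0.16 to 2.05. The RA difference at 4 hpf ranged from -1.34 to 1.00 for gsc, -2.43 to 0.08 for chrd, -1.42 to 0.91 for noto, -0.74 to 0.14 for ndr1, -0.87 to 0.51 for ndr2 and -1.65 to 0.58 for lft1. At 6 hpf it ranged from -0.24 to 0.49 for gsc and -0.44 to 0.57 for lft2, and at 9 hpf from -0.27 to 0.04 for noto, -0.96 to 0.32 for ndr1, -1.05 to 0.07 for ndr2 and -0.10 to 0.25 for lft2. The change in the RA difference of gsc from 4 to 6 hpf ranged from -0.87 to 1.47.

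Replicate numbers did not pair the samples throughout: differences between array 2 and array 1 correlated between untreated and RA-treated embryos at 0.584 at 4 hpf, -0.0088 at 6 hpf and -0.70 at 9 hpf, and at -0.10 to 0.0889 over the other pairs of groups. With the replicate number as a block the counts were 4 between 4 and 6 hpf and 5 between 4 and 9 hpf in untreated embryos, and the block moved 2 calls past the threshold, lft1 between 4 and 9 hpf (adjusted p = 0.0316) and chrd in ZF4 against 4 hpf (adjusted p = 0.0367), both by limma. A block within each stage with the numbers crossed at 9 hpf, chosen after seeing the data, called 1 of 7 for RA at 4 hpf, and 0 in the other 4 tests of RA.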
